A study of Mus musculus with 6 samples.

Results

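The genes described here are 6 mouse genes for RNA-binding proteins that shorten the life of mRNA: *Rc3h1* and *Rc3h2*, which encode Roquin-1 and Roquin-2, *Zc3h12a*, which encodes the endonuclease Regnase-1, and *Zfp36*, *Zfp36l1* and *Zfp36l2*, which encode the tristetraprolin family. They were taken by name and not by a rule on their values, but with earlier results of these data known. They make up 6 of the 53379 genes counted. All 6 were found and all 6 passed the expression filter of the test. The RNA came from splenic follicular Th (Tfh) cells of female mice, 3 of them controls (CTL) and 3 of them *Prdm1*-CKO, at day 7 of an immunization with NP-CGG, a hapten-carrier antigen. *Prdm1*-CKO mice are *Prdm1* fl/fl; CD11c-CRE+. CTL mice are either *Prdm1* fl/fl; CD11c-CRE- or *Prdm1* +/+; CD11c-CRE+, and the labels do not say which applies to each CTL mouse. The CD11c promoter directs Cre to dendritic cells, so the Tfh cells compared here are not the cells in which BLIMP-1, the protein of *Prdm1*, is meant to be lost. For the *Prdm1*-CKO mice the sample titles read Blimp1 KO and the genotype field reads Blimp1 KD. Immunized mice were 6 to 8 weeks old by the methods and received the antigen in CFA, and those used for RNA-seq are described as age-matched. Cells were sorted as live TCRβ+ CD4+ CXCR5+ PD1+ cells, a gate that does not remove FOXP3+ follicular regulatory cells.

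Roquin proteins bind stem-loops in the 3′ UTR of a transcript and bring in deadenylase and decapping enzymes, and Regnase-1 cuts similar stem-loops. Proteins of the Zfp36 family bind AU-rich elements, of which TATTTAT is a core form in DNA letters, and recruit the CCR4-NOT deadenylase. In T cells these proteins are known to restrain costimulatory receptors and cytokines, and the sanroque mutation of Roquin-1 in mice is known to expand Tfh cells and cause a lupus-like disease.

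Several facts about the libraries bear on every value below. Total counts per mouse lay between 7147601 and 16973392, and a floor of 3 counts corresponded to between 0.177 and 0.420 CPM. CPM is the count scaled to library size, and all levels below also use edgeR's TMM factors. CTL replicate 2 stood apart: it lay at 134.6 on a first principal component that held 56.4% of the variance, while the other 5 mice lay between -29.1 and -24.0. That library also had the fewest genes with a count, 16650 against 18480 to 21501 in the other mice. Its mitochondrial share of counts was the highest, 5.83% against 2.11% to 4.41%. Of 14555 genes tested with edgeR's quasi-likelihood test, 0% passed an adjusted p of 0.05, and 342 genes, or 2.35%, had an unadjusted p under 0.05. DESeq2's Wald test called 7 genes higher and 2 lower. The *Prdm1*-CKO mice lay wholly above the CTL mice in 4.56% of the genes and wholly below them in 3.86%, so that the groups did not overlap in 8.42%. The Tfh markers *Cd3e*, *Cxcr5*, *Pdcd1* and *Bcl6* were detected in every mouse, with the lowest level of *Bcl6* at 66.0 CPM. Macrophage and dendritic cell genes were present too. *Lyz2*, the lysozyme gene of myeloid cells, lay between 1763 and 3476 CPM, and 10 genes of that list summed to between 2284 and 4907 CPM in CTL and between 3982 and 4815 CPM in *Prdm1*-CKO mice.

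Sites of the AU-rich core show where the Zfp36 family, whose messages are themselves known to be under such control, could be read by its own proteins. The 3′ UTR was taken from the longest protein-coding transcript of each gene in GENCODE M21, and TATTTAT was searched on the transcript strand, with overlapping matches counted. Of 20981 genes with a 3′ UTR, 27.4% held at least 1 match. *Zfp36* held 3 matches in 774 bases, and 1.17% of 3′ UTRs of like length (80% to 125% of its own) held as many. *Zfp36l1* held 3 in 1835 bases and *Zfp36l2* held 3 in 1822 bases, numbers reached by 4.21% and 4.18% of 3′ UTRs of like length. *Rc3h1* held 2 in 7181 bases and *Rc3h2* held 3 in 5331 bases, reached by 47.5% and 18.4%. *Zc3h12a* held 0 in 856 bases, which says only that these letters are not in that window. The known target *Tnf*, for comparison, held 8 in 764 bases. For each of these genes except *Zc3h12a*, a window of 30 bases is printed 5′ to 3′ as DNA, with TATTTAT in capitals and the position on GRCm38 beside it.
*Zfp36* chr7:28376958-28376987, minus strand: ccttTATTTATgacgacttTATTTATtgta
*Zfp36l1* chr12:80108422-80108451, minus strand: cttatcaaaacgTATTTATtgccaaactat
*Zfp36l2* chr17:84184914-84184943, minus strand: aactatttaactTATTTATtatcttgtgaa
*Rc3h1* chr1:160970042-160970071, plus strand: tactttactcatTATTTATtgagatgagga
*Rc3h2* chr2:37374756-37374785, minus strand: ttccagctgcttTATTTATctttttcattg
*Tnf* chr17:35199678-35199707, minus strand: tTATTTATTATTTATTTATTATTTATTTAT
The window of *Zfp36* holds 2 of its 3 matches, and that of *Tnf* holds 5 that run into each other. A match describes the sequence and does not show that a protein binds there.

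To compare the level of one gene with another, counts were divided by gene length, since a longer transcript gives more reads. Per kb of merged exons and over all 6 mice, *Zfp36l1* stood first, at 70.9 ± 13.2 CPM per kb (SD, n = 6), followed by *Zfp36* at 47.4 ± 13.1. *Zfp36l2* followed at 13.1 ± 2.63 CPM per kb, and *Rc3h1* at 6.91 ± 1.61. *Rc3h2*, at 2.26 ± 0.332, and *Zc3h12a*, at 2.05 ± 0.429 CPM per kb, came last. The 3 AU-rich element binders thus lay above the Roquin genes and Regnase-1, and *Zfp36l1* exceeded 95.3% of the genes tested where *Zc3h12a* exceeded 27.7%. The same order held in CTL mice alone.

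The order was tested on the ratio of each pair of genes within a mouse, where depth cancels. Of the 15 pairs, 14 had the same gene higher in all 6 mice (two-sided exact sign-flip permutation test, p = 0.031 each, the smallest that 6 mice allow, and 0.0335 after Benjamini-Hochberg adjustment over the 15 pairs). *Zfp36l1* was 1.52-fold above *Zfp36* and 5.41-fold above *Zfp36l2* per kb. *Rc3h1* was 3.01-fold above *Rc3h2*, and *Zfp36l2* was 1.92-fold above *Rc3h1*. The exception was *Rc3h2* against *Zc3h12a*, whose log2 ratio per kb was 0.15 ± 0.44 (SD, n = 6), with *Rc3h2* higher in 4 of 6 mice (exact permutation test, p = 0.469).

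**Figure D1:**
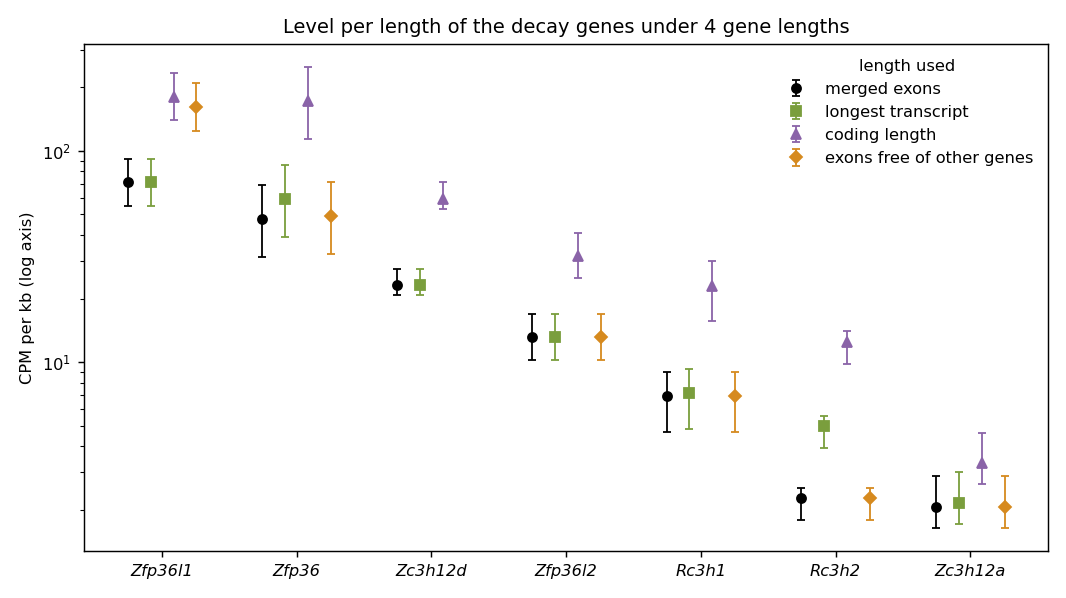
Level per length (CPM per kb, log axis) of the 6 genes and of *Zc3h12d*, a further gene of the Regnase family. Points are means over 6 mice, bars run from the lowest to the highest mouse, and symbols stand for 4 definitions of gene length. The order of the 6 means is the same under each definition, where exons free of other genes divide the full count of *Zfp36l1* by a shorter length, while *Zfp36* and *Zfp36l1* lie close under coding length, at 172 and 180 CPM per kb.

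Some of these steps depend on the length used. The gene model of *Rc3h2* covers 19624 bases of merged exons, while its longest transcript has 8948 bases. With the longest transcript, *Rc3h2* was 2.32-fold above *Zc3h12a* and higher in all 6 mice (exact permutation test, p = 0.031). The step from *Rc3h1* to *Rc3h2* shrank from 3.01-fold to 1.41-fold with the longest transcript and 1.82-fold with coding length, with *Rc3h1* higher in all 6 mice under each. The step from *Zfp36l1* to *Zfp36* shrank to 1.22-fold with the longest transcript (exact permutation test, p = 0.156) and to 1.07-fold with coding length (p = 0.625). With coding length *Zfp36l2* lay 1.40-fold above *Rc3h1* (exact permutation test, p = 0.0625). *Zfp36l1* carries a further limit, since 1672 of its 2990 exon bases, or 55.9%, also lie in exons of *Gm26669*, a lincRNA gene on the opposite strand. Smart-seq2 libraries do not mark the strand, so reads there cannot be assigned to either gene, and how the counting treated them is not given in the sources used here. The same counts divided by the remaining 1318 bases give 161 CPM per kb, a value that applies only if every read on the shared bases was dropped. Under that condition, with exons free of other genes for both, *Zfp36l1* was 3.33-fold above *Zfp36*. It was higher in all 6 mice (exact permutation test, p = 0.031). *Gm26669* had between 4 and 15 counts per mouse. Transcripts were also compared by runs of 25 bases, the length of a read. Runs in common with the other 5 genes numbered 31 for *Rc3h2* and for *Zfp36*, 8 for *Zfp36l1* and for *Zfp36l2*, and 0 for *Rc3h1* and *Zc3h12a*. Runs in common with any other gene, on either strand, made up 63.2% for *Zfp36l1*, mostly with *Gm26669*. They made up 7.67% for *Zfp36*, 3.22% for *Zc3h12a*, 2.76% for *Rc3h2*, 2.6% for *Zfp36l2* and 0.0177% for *Rc3h1*.

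*Rc3h1* (ENSMUSG00000040423.10, chr1:160906418-160974978, plus strand) encodes Roquin-1, the paralog that carries this mutation. Values by mouse are given here and below in the order of replicates 1 to 3. The level of *Rc3h1* was 61.2, 102 and 90.7 CPM in the CTL mice, against 53.0, 83.1 and 78.8 CPM in the *Prdm1*-CKO mice. The groups overlapped, and the lowest mouse of each group was replicate 1. Against CTL, the *Prdm1*-CKO mice had a log2 fold change of -0.24 (standard error 0.25, 95% interval -0.82 to 0.34, adjusted p = 0.996 from edgeR). Without CTL replicate 2 it was -0.097. It stayed below 0 with each mouse left out, from -0.44 to -0.057.

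*Rc3h2* (ENSMUSG00000075376.10, chr2:37370069-37422903, minus strand) encodes Roquin-2, which overlaps with Roquin-1 in function. Its level was 44.7, 37.8 and 49.9 CPM in CTL mice and 35.0, 49.1 and 49.7 CPM in *Prdm1*-CKO mice. Both groups covered almost the same range. The fold change of 0.015 on the log2 scale (standard error 0.22, 95% interval -0.49 to 0.52, adjusted p = 0.998 from edgeR) became -0.096 without CTL replicate 2. It had the smallest spread across mice of the 6, with the highest mouse 1.43-fold above the lowest.

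*Rc3h1* was the higher of the pair in every mouse, by a margin that depended on the length used. Per kb of merged exons, *Rc3h1* took between 70.4% and 82.4% of the sum of both genes, but between 52.7% and 68.7% with the longest transcript and between 59.0% and 73.9% with coding length. The log2 ratio of *Rc3h1* to *Rc3h2* counts was 0.46, 1.43 and 0.86 in CTL mice and 0.60, 0.76 and 0.67 in *Prdm1*-CKO mice. The *Prdm1*-CKO values fell inside the CTL range, with an SD of 0.080 against 0.49, and CTL replicate 2 was the highest. CTL mice varied more in general: the median SD of log2 CPM was 0.29 in CTL and 0.16 in *Prdm1*-CKO mice over 2587 genes within 1.5-fold of the level of *Rc3h1*. The difference of the group means was -0.24 (two-sided exact permutation test of 3 mice against 3, p = 0.6, where the smallest possible p is 0.1), and it was 0.016 without CTL replicate 2.

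*Zc3h12a* (ENSMUSG00000042677.7, chr4:125118423-125127840, minus strand) encodes Regnase-1, an endonuclease that MALT1 cleaves after T cell receptor signalling. The CTL mice gave 80, 70 and 36 counts and the *Prdm1*-CKO mice 101, 59 and 69, the fewest of the 6 genes. These corresponded to 5.48, 8.29 and 5.33 CPM in CTL mice and 5.69, 6.0 and 4.73 CPM in *Prdm1*-CKO mice. CTL replicate 2 was the highest and the other 5 mice lay close together. The log2 fold change was -0.22 (standard error 0.40, 95% interval -1.15 to 0.71, adjusted p = 0.996 from edgeR), and it was 0.0064 without CTL replicate 2. This interval was the widest of the 6.

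Among the genes of the Regnase family the largest part of the level per kb belonged to *Zc3h12d*, which encodes Regnase-4 and is not among the 6. It took between 86.8% and 93.4% of the 4 *Zc3h12* genes, and *Zc3h12a* took between 6.23% and 11.5%. *Zc3h12d* was at 105, 88.5 and 113 CPM in CTL mice and at 88.1, 85.8 and 85.3 CPM in *Prdm1*-CKO mice. The groups did not overlap, with the *Prdm1*-CKO mice lower by a small step from CTL replicate 2, and their SD was 1.5 CPM against 12.7 CPM in CTL mice. On the log2 scale the SD was 0.025 against 0.18, where 2306 genes within 1.5-fold of its level had medians of 0.15 and 0.28. The log2 fold change was -0.24 (standard error 0.16, 95% interval -0.61 to 0.12, adjusted p = 0.996 from edgeR), and the values with each mouse left out ran from -0.35 to -0.16. *Zc3h12b* and *Zc3h12c* had at most 29 and 36 counts in a mouse and 0 in 1 CTL mouse each, and their log2 fold changes of -0.32 and 1.15 had standard errors of 1.12 and 1.03. *N4bp1*, which encodes a related nuclease, was at 26.0 ± 16.4 CPM in CTL and 34.1 ± 13.7 CPM (SD, n = 3 each) in *Prdm1*-CKO mice, with CTL replicate 2 the lowest at 7.82 CPM.

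**Figure D2:**
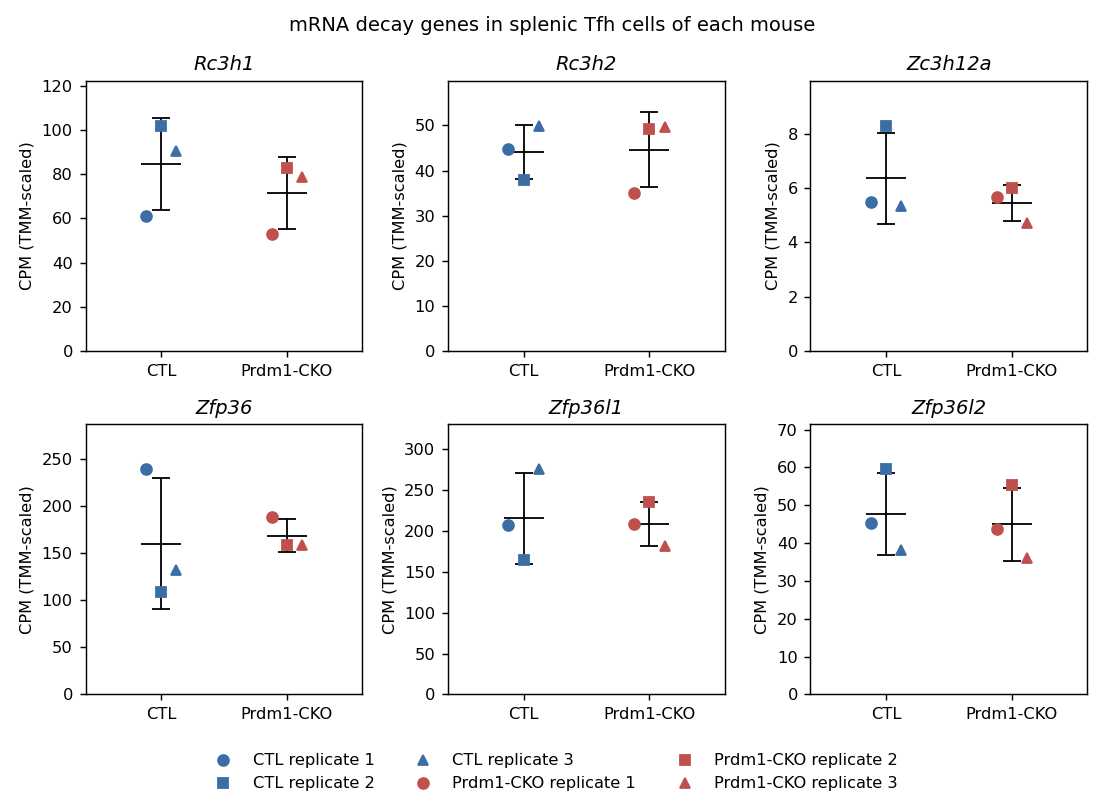
Level in CPM of each of the 6 genes in every mouse, with CTL in blue and *Prdm1*-CKO in red and a marker shape for each replicate number. Horizontal lines are group means and bars are SD (n = 3). The groups overlap for all 6 genes, and *Zfp36* runs from 109 to 239 CPM in CTL mice but only from 159 to 189 CPM in *Prdm1*-CKO mice.

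*Zfp36* (ENSMUSG00000044786.6, chr7:28376784-28380253, minus strand) encodes tristetraprolin, an immediate early gene product that ends the expression of *Tnf* and other cytokine messages. Its level was 239, 109 and 132 CPM in CTL mice and 189, 159 and 159 CPM in *Prdm1*-CKO mice. The *Prdm1*-CKO mice lay between CTL replicate 1 and the other CTL mice. For *Zfp36* the log2 fold change was 0.072 (standard error 0.28, 95% interval -0.57 to 0.72, adjusted p = 0.996 from edgeR), and its sign depended on the mice used. It was 0.47 without CTL replicate 1 (edgeR unadjusted p = 0.0423, adjusted p = 0.689) and -0.15 without CTL replicate 2. The SD of log2 CPM in CTL mice was 0.59, larger than in 90.8% of 1288 genes within 1.5-fold of its level, while that in *Prdm1*-CKO mice was 0.15, larger than in 50.2%.

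*Fos*, another immediate early gene, and *Itgam*, the gene of the myeloid integrin CD11b, were among the 3 genes whose log2 CPM followed that of *Zfp36* most closely over the 6 mice. Pearson's r was 0.983 for each, among 9301 genes with a mean of at least 10 CPM. *Fos* was at 804, 105 and 164 CPM in CTL mice and 530, 220 and 246 CPM in *Prdm1*-CKO mice. The summed macrophage and dendritic cell genes were 4907, 2284 and 3482 CPM in CTL mice and 4740, 3982 and 4815 CPM in *Prdm1*-CKO mice, so CTL replicate 2 was the lowest and CTL replicate 1 the highest, as for *Zfp36*. All 10 genes of that list had log2 fold changes above 0, *Cd14* was the sole marker at 0 in a mouse (CTL replicate 2), and their part in the values of *Zfp36* was not tested. In bulk RNA, fewer cells of a type and less RNA per cell cannot be told apart.

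*Zfp36l1* (ENSMUSG00000021127.7, chr12:80107754-80113013, minus strand) encodes a close relative of tristetraprolin that also limits lymphocyte proliferation. Its level was 207, 165 and 275 CPM in CTL mice and 208, 236 and 181 CPM in *Prdm1*-CKO mice. The lowest and the highest mouse were both CTL, replicates 2 and 3. The groups differed by -0.050 on the log2 scale (standard error 0.21, 95% interval -0.53 to 0.43, adjusted p = 0.996 from edgeR), and by -0.22 without CTL replicate 2. Without CTL replicate 3 the sign turned, to 0.17.

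*Zfp36l2* (ENSMUSG00000045817.8, chr17:84183931-84187947, minus strand) encodes the third paralog, which acts with *Zfp36l1* in thymocyte development. Its level was 45.4, 59.5 and 38.2 CPM in CTL mice and 43.6, 55.3 and 36.2 CPM in *Prdm1*-CKO mice. Both groups thus covered nearly the same range. The log2 fold change was -0.085 (standard error 0.25, 95% interval -0.65 to 0.48, adjusted p = 0.996 from edgeR), or 0.094 without CTL replicate 2. *Zfp36l3*, the placental member of the family, had 0 counts in all 6 mice.

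**Figure D3:**
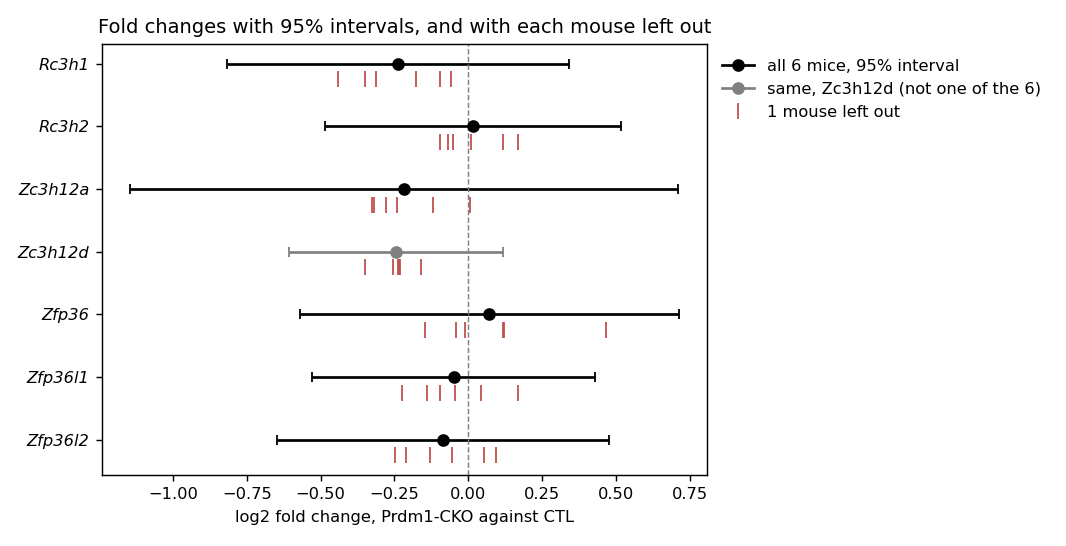
Log2 fold changes of *Prdm1*-CKO against CTL for the 6 genes (black) and *Zc3h12d* (gray), with 95% intervals from edgeR's quasi-likelihood fit. Red ticks give the value with each of the 6 mice left out. All intervals include 0, and 5 of the 6 genes have ticks on both sides of 0, with *Rc3h1* the exception.

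Thus 0 of the 6 genes passed the test, 0 had an unadjusted p under 0.05 (2.35% of all genes tested) and 0 had groups that did not overlap (8.42%). With DESeq2's Wald test 0 of the 6 were called as well. The intervals limit what could be missed: for *Rc3h2*, *Zfp36l1*, *Zfp36l2* and *Zfp36* they ended within 0.72 of 0 on the log2 scale, while *Rc3h1* reached -0.82 and *Zc3h12a* reached -1.15. A p that misses the threshold does not show that the levels were the same.

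The balance among the Zfp36 paralogs was then compared between genotypes. Per kb of merged exons, *Zfp36l1* took between 45.9% and 65.3% of the family in a mouse, *Zfp36* between 27.1% and 45.6%, and *Zfp36l2* between 7.67% and 16.3%. The log2 ratio of *Zfp36* to *Zfp36l1* counts was 0.21, -0.59 and -1.05 in CTL mice and -0.14, -0.57 and -0.19 in *Prdm1*-CKO mice. *Zfp36* counts exceeded those of *Zfp36l1* in CTL replicate 1 only. The group means differed by 0.18 (two-sided exact permutation test, p = 0.6), and by 0.12 without CTL replicate 2. This difference was 0.52 without CTL replicate 1, and its sign turned, to -0.11, without CTL replicate 3.

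The ratio of *Zfp36* to *Zfp36l2* counts was 2.40, 0.88 and 1.79 in CTL mice and 2.11, 1.52 and 2.13 in *Prdm1*-CKO mice on the log2 scale. CTL replicate 2 was the lowest. The difference of the means was 0.23 (exact permutation test, p = 0.7) and -0.17 without CTL replicate 2. The log2 ratio of *Zfp36l1* to *Zfp36l2* counts was 2.19, 1.47 and 2.85 in CTL mice and 2.26, 2.09 and 2.32 in *Prdm1*-CKO mice, a difference of 0.054 (exact permutation test, p = 0.8) and of -0.30 without CTL replicate 2. After Benjamini-Hochberg adjustment over the 4 paralog ratios, each exact permutation p was 0.8.

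**Figure D4:**
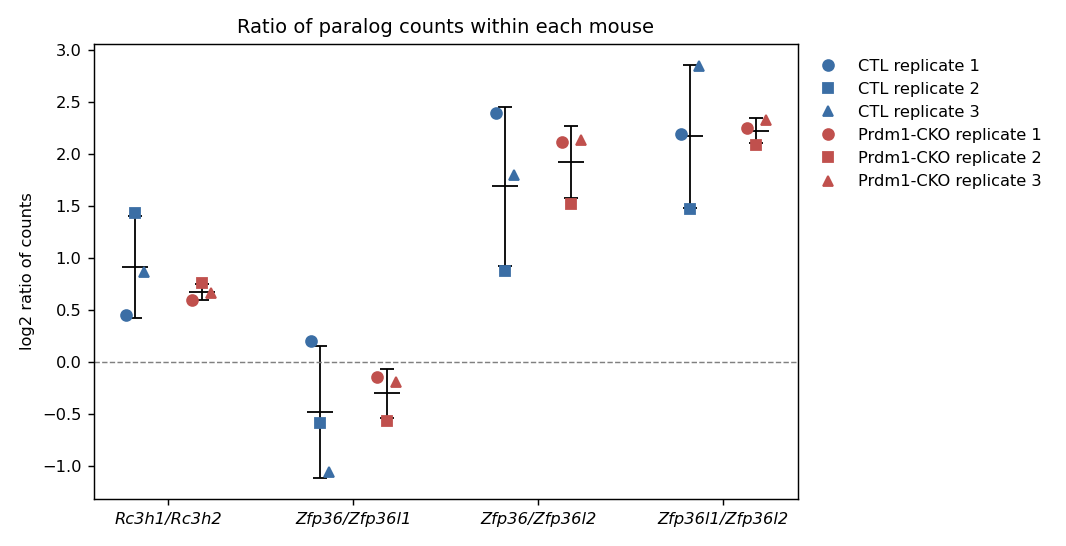
Log2 ratio of counts of 2 paralogs in each mouse, with CTL in blue, *Prdm1*-CKO in red and a marker shape for each replicate number. Horizontal lines are group means and bars are SD (n = 3). In each of the 4 ratios the *Prdm1*-CKO mice lie within the range of the CTL mice.

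The 6 genes did not vary as a block over the mice. Across the 6 mice, the log2 CPM of *Zc3h12a* and *Zfp36l2* had a Pearson's r of 0.877 and that of *Rc3h1* and *Zfp36* an r of -0.874, while the paralogs *Rc3h1* and *Rc3h2* had 0.375 and *Zfp36* and *Zfp36l1* had 0.142. These values describe 6 libraries, of which CTL replicate 2 stands apart, and share the scaling of each library. The genes most like each of the others, by the same rule as for *Zfp36*, were *Pou2f1*, *R3hdm2* and *Nxpe3* for *Rc3h1* (r from 0.985 to 0.989) and *Top1*, *Mfap3* and *Tmem126a* for *Rc3h2* (0.975 to 0.985). They were *S100pbp*, *Ppfia1* and *Brwd1* for *Zc3h12a* (0.990 to 0.992). They were *Psma5*, *Rbm34* and *Psenen* for *Zfp36l1* (0.985 to 0.998) and *Arglu1* and *Casd1* for *Zfp36l2* (0.989 each). No gene was shared between these sets.

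The machinery with which the 6 proteins act was described with 9 lists that hold 83 further genes, of which 80 were tested. Of these, 39 had a log2 fold change above 0, against 51.1% of all genes tested, and the median was -0.017, against 0.010 for all genes. None passed an adjusted p of 0.05 in edgeR's test, and 1, or 1.25%, had an unadjusted p under 0.05, against 2.35% of all genes. That count was 2 without CTL replicate 1 or without *Prdm1*-CKO replicate 1, 4 without CTL replicate 3, and 0 without CTL replicate 2 or without *Prdm1*-CKO replicate 3. These counts cannot be set against the 2.35%, which belongs to the fit with all mice. The groups did not overlap in 3 of the 80, or 3.75%, against 8.42% of all genes. These were *Tob1*, *Exosc5* and *Zc3h12d*.

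*Tob1* encodes an antiproliferative protein that links RNA-binding proteins to the CCR4-NOT deadenylase and is known to hold T cells in quiescence. It was at 17.3, 11.8 and 11.5 CPM in CTL mice and at 25.4, 19.4 and 21.1 CPM in *Prdm1*-CKO mice. The lowest *Prdm1*-CKO mouse exceeded the highest CTL mouse. This was a log2 fold change of 0.69 (standard error 0.28, 95% interval 0.059 to 1.32, adjusted p = 0.996 from edgeR), and with each mouse left out it lay between 0.58 and 0.90. Its unadjusted p in edgeR's test was over 0.05 with any of 4 mice left out: CTL replicate 2 (0.0655), CTL replicate 3 (0.0844), *Prdm1*-CKO replicate 1 (0.129) and *Prdm1*-CKO replicate 3 (0.0734). *Exosc5*, a subunit of the RNA exosome, was at 63.6, 55.7 and 57.1 CPM in CTL and at 68.7, 67.3 and 67.9 CPM in *Prdm1*-CKO mice, which is 0.21 on the log2 scale (standard error 0.16, 95% interval -0.15 to 0.57, adjusted p = 0.996 from edgeR).

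The other lists held values on both sides of 0. Among 10 partners and regulators of Roquin and Regnase, 8 were below 0, from *Upf1*, the helicase that works with Regnase-1, at -0.49, to *Mapkapk2*, the kinase that inhibits tristetraprolin, at 0.30. Of 14 CCR4-NOT genes 9 were below 0, with the scaffold gene *Cnot1* the lowest at -0.41. Of 10 decapping genes 4 were below 0, from *Dcp1a* at -0.77 to *Edc4* at 0.16. *Dcp1a* was at 101, 95 and 28.9 CPM in CTL mice and at 66.9, 34.9 and 29.9 CPM in *Prdm1*-CKO mice, so that CTL replicate 3 lay below all *Prdm1*-CKO mice. Of 12 exosome genes 8 were above 0, from *Skiv2l* at -0.26 to *Exosc3* at 0.30, and of 10 other AU-rich element binders 6 were above 0, from *Khsrp* at -0.34 to *Ybx1* at 0.40. Each of these list extremes had an adjusted p of 0.996 from edgeR.

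**Figure D5:**
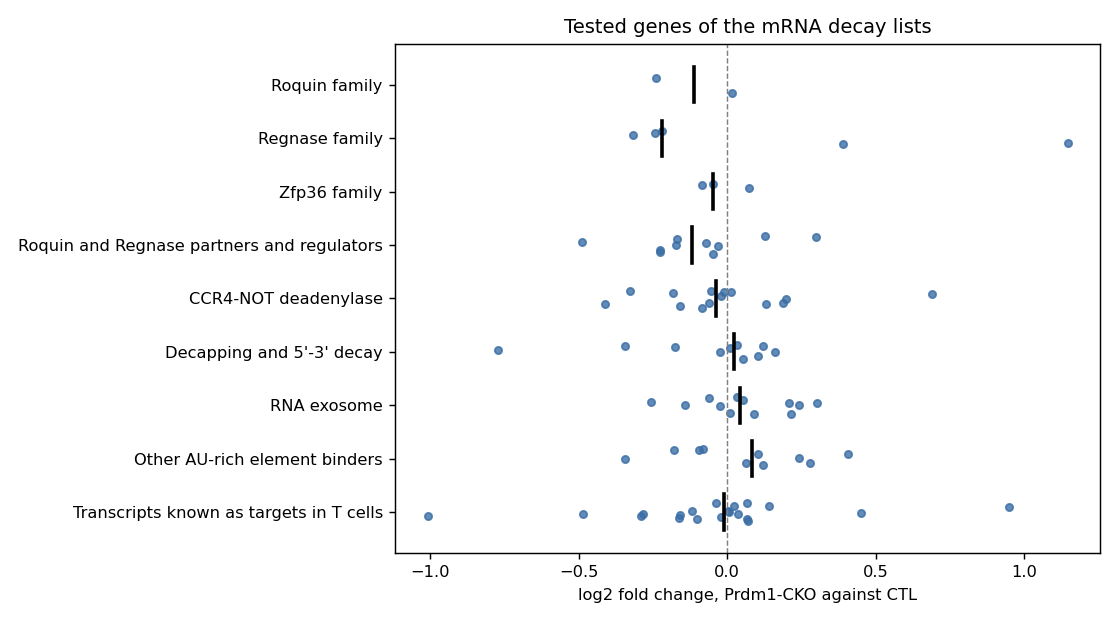
Log2 fold changes of *Prdm1*-CKO against CTL for the tested genes of 9 lists, 1 point a gene, spread vertically at random within a list, with a black line at the median of each list. The 6 genes are included in their family lists. Most points lie close to 0, and the outermost are *Il6* at -1.01 and *Zc3h12c* at 1.15.

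Transcripts known as targets of these proteins in T cells made up the last list. Of 22 such genes 20 were tested, 10 above and 10 below 0, with a median of -0.010, and *Csf2* and *Il17a* did not pass the filter. Of the 20, 0 had an unadjusted p under 0.05 in edgeR's test, against 2.35% of all genes tested. At that share, a count of 0 among 20 genes does not set the targets apart. *Icos*, the costimulatory receptor gene that Roquin-1 represses, was at 232, 246 and 324 CPM in CTL mice and 250, 292 and 263 CPM in *Prdm1*-CKO mice, and its log2 fold change was 0.0065 (95% interval -0.38 to 0.39). *Tnfrsf4*, which encodes OX40, was at 235, 184 and 285 CPM in CTL and 243, 277 and 218 CPM in *Prdm1*-CKO mice, and its log2 fold change was 0.066 (95% interval -0.37 to 0.50). For both genes the *Prdm1*-CKO mice lay within the CTL range.

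*Tnf* was at 52.3, 60.5 and 88.2 CPM in CTL and 55.6, 69.5 and 59.9 CPM in *Prdm1*-CKO mice, with a log2 fold change of -0.12 (95% interval -0.65 to 0.41). The extremes of the list rested on few counts. *Il6*, the lowest at -1.01 (standard error 0.94), had 72, 68 and 2 counts in the CTL mice against 20, 24 and 45 in the *Prdm1*-CKO mice. *Ier3*, the highest at 0.95 (standard error 0.66), had 115, 8 and 34 counts in the CTL mice against 154, 76 and 154 in the *Prdm1*-CKO mice. In CPM, CTL mice lay on either side of the *Prdm1*-CKO mice for *Il6*, and the groups overlapped for *Ier3*.

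The heptamer TATTTAT gave a further way to sort transcripts that Zfp36 proteins could bind. Of the 22 targets 14 held it, and the 12 tested among these had a median log2 fold change of -0.058, against -0.0079 for the 8 tested targets without it. Over all tested genes with a 3′ UTR, the median log2 fold change was 0.034 in 8199 genes with 0 matches, -0.025 in 2977 genes with 1 or 2 and -0.050 in 440 genes with 3 or more. The shares above 0 were 54.6%, 46.3% and 43.6%. These medians were given no test, and a longer 3′ UTR has more room for matches.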

How the data were processed

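RNA-seq counts per gene were deposited for 6 mice, 1 library a mouse. The authors made Smart-seq2 libraries with paired reads of 25 bases and counted reads on GRCm38 genes with featureCounts, without normalization. Per the submitters' processing notes, reads were aligned with STAR 2.4.2a. Strand use, multiply aligned reads and reads on overlapping genes in the counting are not given in the sources used here. Of 53379 identifiers, 53274 were in GENCODE M21, which gave symbols, lengths and 3′ UTRs. No library pair was identical.

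Groups of 3 mice each were compared by edgeR's quasi-likelihood test (edgeR 4.0.16, R 4.3.3, TMM factors, filterByExpr, two-sided), with Benjamini-Hochberg adjustment over 14555 genes. CPM used TMM factors, and correlations used log2 CPM with a prior count of 2. Level pairs were tested by exact sign flips within mice and paralog ratios by exact permutation. Nothing beyond the mouse number says how replicates were handled, so p-values measure the spread between these mice. Intervals of 95% come from edgeR's fit and are not adjusted for the number of genes, and the floor of 3 counts covers counting error only. On simulated data with 200 genes changed 4-fold among 14555, the *Prdm1*-CKO against CTL test recovered 60.5%, with 7 false calls. The simulated counts used a common mean for each gene and a spread from edgeR's trend over all genes. They held no library that stands apart as CTL replicate 2 does, so the share recovered does not carry over to these mice.

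Members and lists were chosen with earlier results of these data known. Genes named are the 6, the other Regnase and Zfp36 family genes, the extremes of each decay list, genes of those lists with an unadjusted p under 0.05 and the 3 genes most correlated with each member, of which 2 are not reported here. *Icos*, *Tnfrsf4*, *Tnf* and *Exosc5* and the grouping by TATTTAT were added after values were seen. Alternatives were DESeq2 1.42.0 size factors and Wald test, other filters, the replicate number as a block, voom with sample weights (limma 3.58.1), each mouse left out, other gene lengths and 0.5 counts added to ratios. Exons free of other genes were added after the data were seen.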

Additional observations from a re-analysis of the deposited data

How the results depend on the processing

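The 6 fold changes stayed without a call at an adjusted p of 0.05 under every alternative run. Voom with sample weights put *Rc3h2* at -0.032, *Zfp36* at -0.11, *Mapkapk2* at -0.018, *Tnfrsf4* at -0.030 and *Zc3h12b* at 0.58, each with the sign turned. The cause was not tested. With each mouse left out in turn, the log2 fold changes ran from -0.096 to 0.17 for *Rc3h2*, from -0.33 to 0.0064 for *Zc3h12a*, from -0.15 to 0.47 for *Zfp36*, from -0.22 to 0.17 for *Zfp36l1* and from -0.25 to 0.094 for *Zfp36l2*. The log2 paralog differences ran from -0.47 to 0.016 for *Rc3h1* to *Rc3h2*, from -0.11 to 0.52 for *Zfp36* to *Zfp36l1*, from -0.17 to 0.59 for *Zfp36* to *Zfp36l2* and from -0.30 to 0.39 for *Zfp36l1* to *Zfp36l2*. Among the other genes named, the same step gave -0.87 to 0.61 for *Zc3h12b*, -0.056 to 0.82 for *N4bp1*, -0.033 to 0.50 for *Mapkapk2*, -0.12 to 0.58 for *Edc4*, -0.43 to 0.070 for *Skiv2l*, -0.62 to 0.040 for *Khsrp*, -0.10 to 0.17 for *Icos*, -0.095 to 0.24 for *Tnfrsf4* and -0.29 to 0.14 for *Tnf*. With no turn of sign, it gave -0.72 to -0.32 for *Upf1*, -0.69 to -0.23 for *Cnot1*, -1.20 to -0.50 for *Dcp1a*, 0.025 to 0.51 for *Exosc3*, 0.11 to 0.58 for *Ybx1*, -1.54 to -0.30 for *Il6*, 0.46 to 1.58 for *Ier3* and 0.57 to 2.44 for *Zc3h12c*. Genes called among all tested were 1 higher without the filter on low counts, and 7 higher and 2 lower by DESeq2's Wald test. List genes with an unadjusted p under 0.05 were 2 without the filter, 0 under voom and 0 to 4 with a mouse left out. The share over all genes in those fits is not given here. For level per kb, *Rc3h2* over *Zc3h12a* passed the test at a log2 ratio of 1.22 with the longest transcript and 1.92 with coding length. *Zfp36* over *Zfp36l1* did not pass with these 2 lengths, at -0.29 and -0.092, but passed at -1.73 with exons free of other genes. *Rc3h1* over *Zfp36l2* did not pass at -0.48 with coding length. *Rc3h1* over *Rc3h2* kept its call, at a log2 ratio of 1.59 with merged exons, 0.50 with the longest transcript and 0.87 with coding length. With 5 mice no pair can reach a p under 0.0625 in the exact test.

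Replicate numbers are shared by CTL and *Prdm1*-CKO mice but belong to different animals. Correlations of the deviations from the group means were 0.158, 0.0282 and 0.016 for mice of the same number. For mice of different numbers they lay between -0.131 and 0.0829. The value of 0.158, for replicates 1, was the highest of all. The other same-number values lay within the range of different numbers, so no pairing was established. With the replicate block, the log2 fold changes were -0.23 for *Rc3h1*, 0.0045 for *Rc3h2*, -0.19 for *Zc3h12a*, 0.15 for *Zfp36*, -0.026 for *Zfp36l1* and -0.080 for *Zfp36l2*, and no call changed. Depth limits *Zc3h12a* most, at 36 to 101 counts a mouse, and *Zc3h12b*, *Zc3h12c*, *Il6* and *Ier3* among the other genes.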

Other observations

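Genes of other splenic cells were measured beside the 6 decay genes, and the values are given as sums of CPM over marker lists. All 10 B cell genes had log2 fold changes above 0, with sums of 181, 109 and 122 CPM in CTL mice and 242, 154 and 223 CPM in *Prdm1*-CKO mice, which overlapped. All 7 plasma cell genes were above 0, at 738, 485 and 663 CPM against 744, 866 and 951 CPM, so that each *Prdm1*-CKO mouse was higher, by a small step from CTL replicate 1. Of the 7, only *Derl3* and *Mzb1* had groups that did not overlap, and *Irf4* and *Sdc1* had log2 fold changes of 0.0018 and 0.032. *Jchain* made up much of the sums, at 383, 254 and 382 CPM in CTL and 363, 549 and 636 CPM in *Prdm1*-CKO mice. All 6 genes of regulatory T cells, which the sort gate lets through, were below 0, at 947, 1091 and 960 CPM against 923, 939 and 844 CPM. The sums did not overlap, by a small step from CTL replicate 1 to *Prdm1*-CKO replicate 2, but the groups overlapped in each of the 6 genes, none had an unadjusted p under 0.05 in edgeR's test, and *Foxp3*, which defines these cells, was highest in *Prdm1*-CKO replicate 1, at 182 CPM. Of the 12 Tfh genes 8 were below 0, with sums between 3581 and 4549 CPM in CTL mice and between 3429 and 3659 CPM in *Prdm1*-CKO mice. All 6 neutrophil genes and all 4 erythroid genes tested were above 0. Neutrophil genes summed to between 93.9 and 205 CPM in CTL and between 151 and 199 CPM in *Prdm1*-CKO mice, erythroid genes to between 7.11 and 17.6 and between 12.1 and 47.4 CPM, and CD8 T and NK cell genes to between 93.0 and 151 and between 78.7 and 115 CPM. Of the 62 marker genes tested, none passed an adjusted p of 0.05 in edgeR's test. In that test 9 (14.5%) had an unadjusted p under 0.05, against 2.35% of all genes. The groups did not overlap in 12 (19.4%), against 8.42%. These lists were chosen with earlier results of these data known, so the shares are a description and not a test. The erythroid list alone gave 3 of the 9. The 9 were *Jchain*, *C1qc*, *Ngp*, *Hba-a1*, *Hbb-bs* and *Hbb-bt*, with log2 fold changes from 0.60 (*Jchain*) to 1.88 (*Hbb-bs*), and *Cd4*, *Gzma* and *Cd8a*, at -0.29, -1.14 and -2.02. With each mouse left out, log2 fold changes ran from 0.42 to 0.81 for *Jchain* and from 1.09 to 2.48 for *C1qc*. They ran from 0.73 to 1.70 for *Ngp*, 1.02 to 1.64 for *Hba-a1* and 1.38 to 2.54 for *Hbb-bs*. *Hbb-bt*, in the fits that hold it, ran from 1.55 to 2.17. *Cd4* ran from -0.37 to -0.25, *Gzma* from -1.40 to -0.77 and *Cd8a* from -2.39 to -1.29. Without CTL replicate 2, 2 of the 9 kept an unadjusted p under 0.05 in edgeR's test (*Hbb-bs* and *Gzma*), and with the replicate block 4 did. Leaving out each of the other mice, 3 to 6 of the 9 did. Over all marker genes the count was 2 without CTL replicate 2, 15 without CTL replicate 1, 7 without CTL replicate 3, and 3, 4 and 3 without *Prdm1*-CKO replicates 1, 2 and 3. As the 2.35% is from the fit with all mice, these counts cannot be set against it. The CD8 T and NK cell genes were 3 above and 4 below 0. Of these, *Cd8a* rested on 6 to 42 counts a mouse, while *Cd8b1*, at 13.7 CPM or less in CTL mice and 14.7, 14.6 and 17.1 CPM in *Prdm1*-CKO mice, was higher in each *Prdm1*-CKO mouse (log2 fold change 0.44, 95% interval -0.20 to 1.07). The part of these cell types in the levels of the decay genes was not tested.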
